A study of Homo sapiens with 12 samples.

Results

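The selenoproteins described here are 9 genes whose products carry selenocysteine: GPX1, GPX4, TXNRD1, TXNRD2, SEPHS2, SELK (now SELENOK), SELT (now SELENOT), SEPW1 (now SELENOW) and MSRB1. They were chosen by gene name from a table of 20212 protein-coding genes, and all 9 passed the minimum of 10 ribosome footprint (RF) and 10 total RNA counts that left 13329 genes for testing. PANC-1, a human pancreatic duct cancer cell line, was treated with DMSO (3 cultures) or with 50 nM Rapamycin, an mTORC1 inhibitor, for 60 min (3 cultures). RF and total RNA were sequenced from each treatment, which gave 12 libraries. The study describes PANC-1 as lacking 4EBP1, the repressor of the cap-binding factor eIF4E, so both groups share that background, and the data come from a single cell line. The comparison asks whether mTOR inhibition changed the translation efficiency (TE), which is the RF level over the total RNA level of a gene. Nothing in the sources used here says whether the cultures were grown on separate occasions, so the p-values measure only the spread between these samples.

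Selenocysteine is inserted at a TGA codon that would otherwise end translation. The ribosome reads that codon through with the help of a stem-loop in the 3′ part of the mRNA (the SECIS element), the binding protein SECISBP2, the elongation factor EEFSEC and a dedicated tRNA. Selenoproteins include glutathione peroxidases (GPX1 in the cytosol, GPX4 on membrane lipid peroxides), thioredoxin reductases (TXNRD1 in the cytosol, TXNRD2 in mitochondria), the methionine sulfoxide reductase MSRB1, the endoplasmic reticulum proteins SELK and SELT, the small redox protein SEPW1, and SEPHS2, which makes the selenium donor. GPX4 is known for its part in resistance to ferroptosis.

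The 27 bases around the selenocysteine codon are shown because that codon is the feature the members share. Capitals mark the selenocysteine TGA, the coordinates are those of the TGA on GRCh37, and the codon number is counted from the start codon of the transcript used.

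GPX1, codon 49 of 203, exon 1, minus strand, chr3:49395565-49395567: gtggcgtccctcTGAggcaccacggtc
GPX4, codon 73 of 197, exon 3, plus strand, chr19:1105402-1105404: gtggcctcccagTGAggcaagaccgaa
TXNRD1, codon 498 of 499, exon 15, plus strand, chr12:104742191-104742193: caggctggctgcTGAggttaagcccca
TXNRD2, codon 523 of 524, exon 17, minus strand, chr22:19864634-19864636: gtgacaggctgcTGAgggtaagcgcca
SEPHS2, codon 60 of 448, exon 1, minus strand, chr16:30456869-30456871: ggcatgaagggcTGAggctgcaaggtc
SELK, codon 92 of 94, exon 4, minus strand, chr3:53919858-53919860: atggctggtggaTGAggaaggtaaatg
SELT, codon 49 of 195, exon 2, plus strand, chr3:150340179-150340181: atttgtgtttccTGAggttataggcgg
SEPW1, codon 13 of 87, exon 2, plus strand, chr19:48283989-48283991: tattgtggcgctTGAggctacaagtcc
MSRB1, codon 95 of 116, exon 3, minus strand, chr16:1990813-1990815: cagtcccgattcTGAatattcagcagc

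The base after the TGA was G in 8 of the 9 members and A in MSRB1. The selenocysteine codon lay in the first 40% of the codons in 5 members (SEPW1, SEPHS2, GPX1, SELT and GPX4) and in the last 20% in the other 4. In TXNRD1, TXNRD2 and SELK at most 2 codons followed it. SEPHS2, which has a single exon, was the 1 member with TGA as its stop codon too. An exon junction lay downstream of the selenocysteine codon in 7 members, and in 5 of them (GPX1, GPX4, TXNRD2, SELT and SEPW1) the last junction was over 50 bases away. The coding sequence made up between 17% of the exon bases (SELT) and 81% (TXNRD2). A terminal oligopyrimidine start (an annotated 5′ end that begins with C and then 4 or more pyrimidines, the feature of many mRNAs that mTOR controls) was found in 0 of the 9 members and in 719 of 18605 genes (3.86%).

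**Figure D1:**
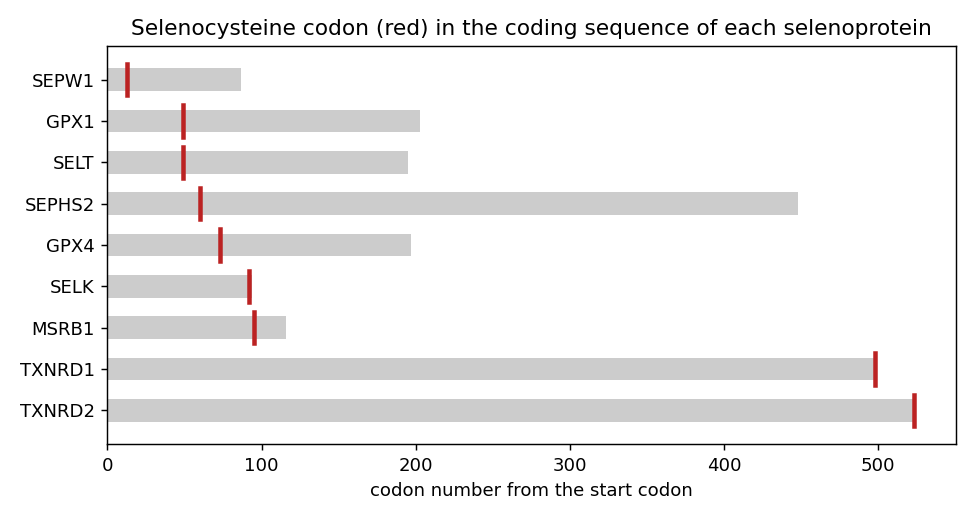
Position of the selenocysteine codon (red line) in the coding sequence (grey bar, in codons from the start codon) of each member. The codon is near the start in SEPW1 (codon 13 of 87) and next to the stop codon in TXNRD1 (codon 498 of 499) and TXNRD2 (codon 523 of 524).

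RF libraries held 278835 to 1574723 counts and total RNA libraries 78081241 to 94293744, so a floor of 3 counts stood at 2.04 to 9.98 CPM (RF or RNA counts per 1e6 counts of the library) in RF and at 0.0322 to 0.0388 CPM in total RNA. The shallowest RF libraries were DMSO 1 and Rapamycin 3, and the deepest was DMSO 3. DMSO RF 2 had counts for 12568 genes at a depth of 881106 counts, while Rapamycin RF 2 had counts for 15402 genes at 792690. DMSO total RNA 1 and 2 had counts for 16840 and 16858 genes against 19751 to 19847 in the other total RNA libraries, while every member had at least 614 counts in every total RNA library. The epithelial keratins KRT8, KRT18 and KRT19 lay between 1979 and 3654 CPM in total RNA and KRT7 between 5.44 and 6.94 CPM. PTPRC, CD3E, PRSS1, AMY2A and INS, markers of leukocytes, acinar cells and islets, were at 0 to 0.626 CPM.

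Total RNA levels of the members differed widely between genes, and no member passed the test for a change under Rapamycin. On the FPKM scale, which divides by transcript length, TXNRD1 was highest with 497 ± 20.6 (SD, n = 3) in DMSO and 469 ± 5.11 in Rapamycin. GPX4 followed with 297 ± 14.8 and 296 ± 16.4. SELT had 75.9 ± 4.55 and 72.3 ± 2.73. These 3 mRNAs were separated from each other in every library. Next came SEPW1 (57.7 ± 0.761 in DMSO), GPX1 (41.0 ± 1.21), SELK (13.8 ± 1.17), TXNRD2 (10.7 ± 0.539), SEPHS2 (9.24 ± 0.178) and MSRB1 (5.56 ± 0.0645). TXNRD2 and SEPHS2 were the neighbours in this order whose ranges overlapped, at 9.61 to 11.3 and 8.56 to 10.4 FPKM over 6 libraries.

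The fitted total RNA changes lay between -0.03 for TXNRD1 and 0.06 for SEPHS2 on the log2 scale, with a median of -0.01 beside 0.01 over all genes tested. In edgeR's quasi-likelihood test, adjusted after Benjamini and Hochberg over all genes, 0 of 9 members passed an adjusted p of 0.05, against 0% of the 13329 genes, and DESeq2 also called 0 members. At an unadjusted p under 0.05 there were 0 members, against 3.32% of the genes higher and 2.51% lower. Total RNA CPM was separated between treatments in 0 members, against 8.22% of the genes higher and 6.61% lower. The smallest adjusted p was 0.776, for TXNRD1. FPKM was lower in each Rapamycin library than in any DMSO library for 1 member, TXNRD1, against 6.82% of the genes, and higher in this way for 0, against 5.93%. TXNRD1 stood at 480 to 520 in DMSO and 465 to 475 in Rapamycin, although its total RNA CPM did overlap (1424, 1448 and 1453 in DMSO, 1384, 1413 and 1432 in Rapamycin).

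**Figure D2:**
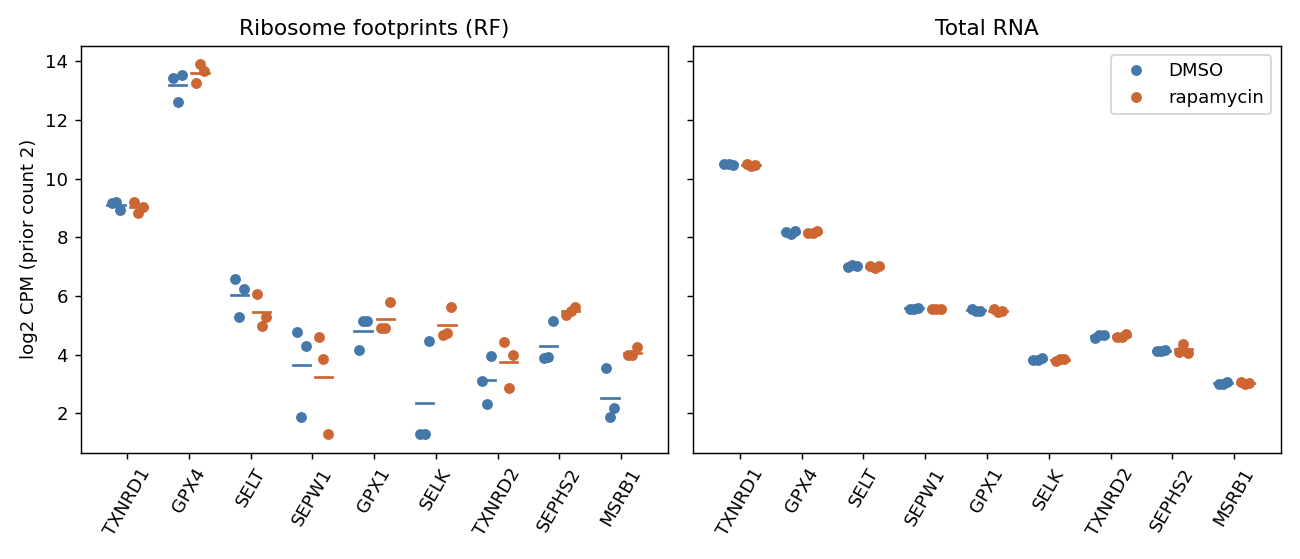
Level of each member in each RF library (left) and total RNA library (right), as log2 CPM with a prior count of 2, ordered by total RNA FPKM. Points are libraries and lines are group means. In total RNA the points of the 2 treatments lie on top of each other, while in RF the members with few counts spread widely and GPX4 lies far above the rest.

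GPX4 stood apart in the footprints. The DMSO libraries held 3585, 4969 and 17448 GPX4 footprints and the Rapamycin libraries 11954, 12559 and 3923. That was 1.18% (95% Wilson interval 1.14 to 1.22), 0.564% (0.549 to 0.58) and 1.11% (1.09 to 1.12) of all RF counts in the DMSO libraries. In Rapamycin the share was 0.952% (0.935 to 0.969), 1.58% (1.56 to 1.61) and 1.41% (1.36 to 1.45). The intervals cover counting error only, and the 2 groups overlapped. GPX4 ranked between 3 and 20 among all genes in the RF libraries, and between 592 and 683 in the total RNA libraries. It supplied 90.4% to 96.2% of the members' RF counts, but 13.7% to 14.9% of their total RNA counts.

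Summed over libraries, GPX4 had 54438 RF counts for 150760 RNA counts, a ratio of 0.361. The ratio was 0.00637 for the median gene tested, 56.7 times lower. Among the other 8 members it lay between 0.00282 (SEPW1) and 0.0168 (SEPHS2), so no other member came near GPX4. Of the genes tested, 657 (4.93%) had a higher ratio than GPX4. GPX4 was the gene with the 9th most RF counts. The 20 genes with the most RF counts had a median ratio of 2.29. That set was picked by the RF counts that enter the ratio, so its ratios are high in part by selection. Whether these GPX4 footprints come from translating ribosomes was not tested, since the tables hold no read positions.

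TXNRD1, whose mRNA was the most abundant, was covered by 187, 461 and 720 footprints in DMSO cultures and by 713, 370 and 157 after Rapamycin. Scaled to depth this was 575, 579 and 489 CPM against 591, 448 and 522 CPM, the tightest RF values among the members. Per kb of coding sequence TXNRD1 had 366 ± 34.0 RF CPM in DMSO (n = 3) and GPX4 had 16427 ± 5124. SELT had 114 ± 48.3, SEPW1 54.7 ± 45.6, GPX1 44.2 ± 16.4 and SELK 23.3 ± 40.3. SEPHS2 had 14.3 ± 8.67, MSRB1 12 ± 12.6 and TXNRD2 4.57 ± 3.35. GPX4 and TXNRD1 were separated from each other and from the rest in every library, while the lower members overlapped their neighbours.

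**Figure D3:**
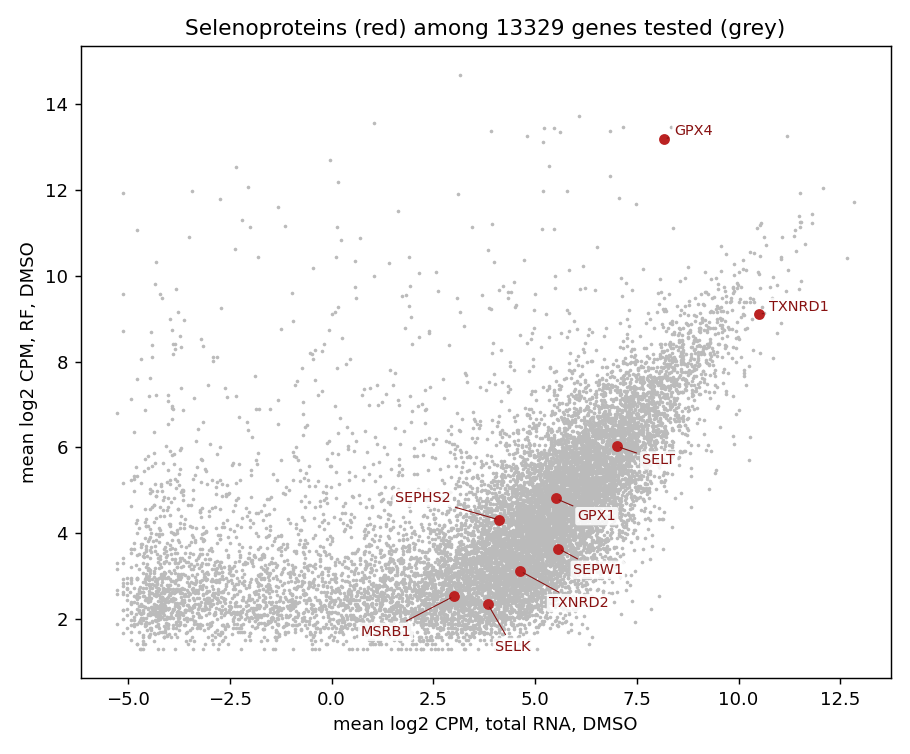
Mean log2 CPM in the 3 DMSO cultures, RF against total RNA, for the 13329 genes tested (grey points) and the 9 members (red). Of the members, 8 lie within the main cloud, with TXNRD1 toward its lower edge, and GPX4 lies above it beside a scatter of genes with many footprints for their RNA.

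TE levels before treatment differed between members. The mean log2 TE in DMSO, RF CPM over total RNA CPM, was 5.03 ± 0.462 for GPX4, 0.18 ± 0.680 for SEPHS2, -0.48 ± 0.885 for MSRB1 and -0.70 ± 0.606 for GPX1. It was -0.99 ± 0.695 for SELT, -1.39 ± 0.122 for TXNRD1, -1.49 ± 1.81 for SELK, -1.52 ± 0.824 for TXNRD2 and -1.93 ± 1.53 for SEPW1 (SD, n = 3). The median over the genes tested was -0.53, and 6 of the 9 members lay below it. Apart from GPX4, neighbours in this order differed by less than the larger of their SDs. TXNRD1 was higher in TE than 25.4% of the genes, TXNRD2 than 22.3%, SEPW1 than 13.4% and GPX4 than 90.4%. Among the 11495 genes with a total RNA level of at least 1 CPM in DMSO, GPX4 was higher than 99.1%, and 98 genes were higher still. The median of that set was -0.76. Of the members, GPX1 alone changed sides there, being higher than 52.1% of the set.

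Footprints fall mostly on coding sequence and RNA reads on the whole transcript, so a long untranslated region lowers this TE. With exon length set against coding length, 5 of 9 members lay below the median of the genes, and 4 of 9 with the selenocysteine transcript of each member. SELT changed sides: its isoform of highest FPKM, with 137 codons and no annotated selenocysteine, placed it above 34.2% of the genes, and its selenocysteine transcript above 68.9%. SELK then lay above 58.1% of the genes in place of 22.8%, and MSRB1 above 66.5% in place of 51.4%, while TXNRD1 (13.9%) and TXNRD2 (11%) stayed low and GPX4 stayed high (89.4%). The scaled value depends on which isoform was taken as the most abundant. For SEPHS2, SELK and TXNRD1 that choice rests on isoforms holding 8.7%, 31.2% and 42.2% of the gene's FPKM. For SELT the choice was between isoforms of 22.9 FPKM each.

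Under Rapamycin no member passed the test for a change in TE. By edgeR's quasi-likelihood test of the interaction between library type and treatment, 0 of 9 members passed an adjusted p of 0.05, as did 0% of the 13329 genes. DESeq2, which called 5.14% of the genes as TE up, called 1 member, MSRB1, and limma voom called 0. At an unadjusted p under 0.05 there was 1 member higher (MSRB1) and 0 lower, against 6.17% and 6.42% of the genes. The fitted TE change was above 0 for 7 members and below 0 for SELT and TXNRD1, with a median of 0.39 on the log2 scale beside -0.06 over all genes tested. Of the members above 0, SEPW1 had a lower mean log2 TE per culture in Rapamycin (-2.3) than in DMSO (-1.93). In SEPHS2, SELK and MSRB1, 3 of 9 members (33.3%), log2 TE was higher in each Rapamycin culture than in any DMSO culture, against 4.8% of all genes tested. In the opposite direction there were 0 members, against 6.19% of the genes.

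**Figure D4:**
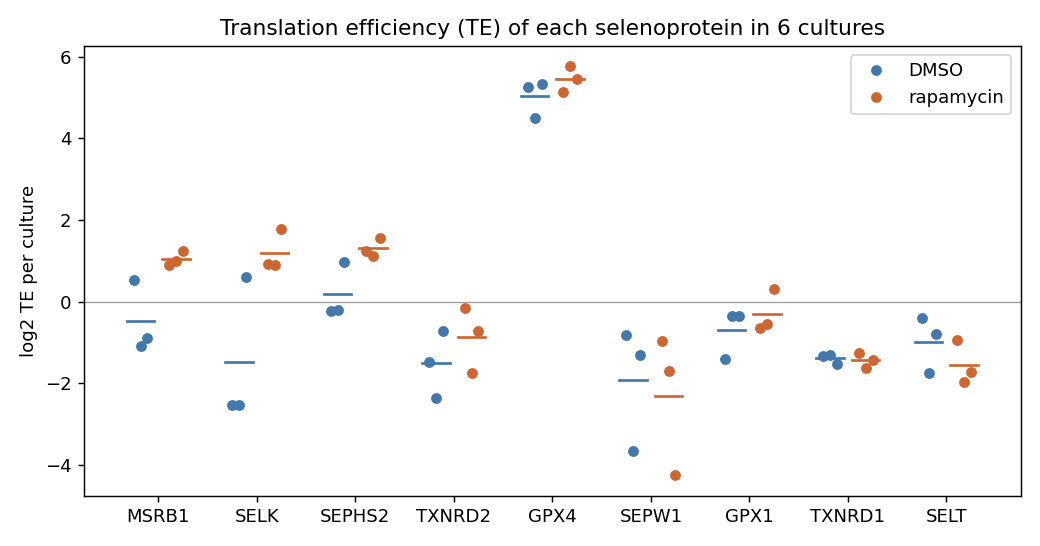
Log2 TE of each member in each culture (points) with group means (lines), in order of the fitted change. MSRB1, SELK and SEPHS2 are higher in all 3 Rapamycin cultures than in any DMSO culture, and the 2 lowest SELK points are cultures with 0 RF counts.

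MSRB1, which reduces oxidized methionine, had 3, 1 and 3 footprints in the DMSO libraries and 16, 11 and 5 in the Rapamycin libraries. Its total RNA counts were 749, 729 and 725 against 750, 614 and 698. All 3 Rapamycin libraries thus held more MSRB1 footprints than any DMSO library, including Rapamycin 3, which was shallower than each of them. In RF CPM the values were 9.23, 1.26 and 2.04 against 13.3, 13.3 and 16.6, and the groups did not overlap. Log2 TE was -0.48 ± 0.885 in DMSO and 1.04 ± 0.173 in Rapamycin (n = 3, two-sided exact permutation p = 0.1, the smallest that 3 against 3 cultures allow). Pooled over libraries, 7 counts in DMSO and 32 in Rapamycin gave a ratio of 5.08 per effective library size, with an exact interval of 2.2 to 13.6 for counting error alone.

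The fitted TE change of MSRB1 was 2.32 ± 0.586 (SE) on the log2 scale, with an unadjusted p of 0.00138 and an adjusted p of 0.231 by edgeR's quasi-likelihood test. DESeq2 gave the same size, 2.32 ± 0.606, with an adjusted p of 0.00458, and over all alternatives the adjusted p ran from 0.00458 to 0.724. The TE fit uses a single spread for both library types (a biological coefficient of variation of 24.4%), whereas the RF libraries alone varied by 54.9% and the RNA libraries by 5.31%. In RF alone the change was 2.01 ± 1.12, with an unadjusted p of 0.0891 by edgeR's test. The whole MSRB1 result rests on 39 RF counts.

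SELK, an endoplasmic reticulum membrane protein, had 0, 0 and 29 footprints with DMSO and 28, 20 and 14 with Rapamycin. The groups overlapped in raw counts but not in RF CPM, where the DMSO values were 0, 0 and 19.7 and the Rapamycin values 23.2, 24.2 and 46.6. DMSO 3, the deepest RF library, was thus close to the Rapamycin cultures. DMSO 1 and 2 held no SELK footprint, where 3 counts would be 9.23 and 3.77 CPM. DMSO 2 also had few genes detected for its depth. Whether treatment or library accounts for the missing footprints was not tested. The fitted TE change was 1.30 ± 0.628 with an adjusted p of 0.412 by edgeR's test. Pooled over all libraries, 29 counts in DMSO and 62 in Rapamycin gave a ratio of 2.38 per effective library size. The exact interval for counting error alone was 1.51 to 3.83. Without DMSO 3, the only control with SELK footprints, SELK passed (adjusted p = 0.0236 by edgeR's test, in a fit that called 0.522% of the genes as higher). Its pooled RF level in Rapamycin was then 9.93-fold a floor of 3 counts set over both remaining DMSO libraries. Over all alternatives the adjusted p of SELK ran from 0.0236 to 0.724.

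SEPHS2, selenophosphate synthetase 2, had 4, 10 and 48 footprints in the DMSO libraries against 46, 35 and 14 in the Rapamycin libraries. In RF CPM this was 12.3, 12.6 and 32.6 against 38.1, 42.4 and 46.6, so the groups were separated, again with DMSO 3 nearest to the Rapamycin cultures. Log2 TE was 0.18 ± 0.680 and 1.30 ± 0.223. The fitted TE change was 0.73 ± 0.380, with an adjusted p of 0.448 by edgeR's test. Without DMSO 3 it was 1.61 with an adjusted p of 0.0816 by edgeR's test, the lowest of its alternatives, which reached 0.775. Total RNA of SEPHS2 was 1599, 1596 and 1573 counts in DMSO and 1530, 1597 and 1441 in Rapamycin. The selenocysteine codon of these 3 members lay after 13.2% (SEPHS2), 81% (MSRB1) and 96.8% (SELK) of the codons, that is, both early and late in the coding sequence.

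TXNRD2, the mitochondrial thioredoxin reductase, had 2, 2 and 19 footprints with DMSO and 23, 4 and 4 with Rapamycin. Its fitted TE change was 0.59 ± 0.602, and without Rapamycin 1, which held most of its Rapamycin counts, it was -0.32. SEPW1 had 8, 1 and 25 footprints with DMSO and 26, 10 and 0 with Rapamycin, and a fitted change of 0.25 ± 0.617. Its mean log2 TE per culture and its RF change (-0.152) went the other way. For both genes single libraries set the direction.

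GPX4 had a fitted TE change of 0.39 ± 0.268 and an RF change of 0.39, with log2 TE of 5.26, 4.50 and 5.33 in DMSO and 5.13, 5.76 and 5.46 in Rapamycin. The cultures overlapped, and the unadjusted p was 0.169 by edgeR's test. TXNRD1 was the most precise, with a TE change of -0.04 ± 0.163 and log2 TE of -1.33, -1.32 and -1.53 against -1.27, -1.62 and -1.43. GPX1 had 5, 26 and 48 footprints with DMSO and 33, 23 and 16 with Rapamycin, and a TE change of 0.18 ± 0.428. SELT, a thioredoxin-like protein of the endoplasmic reticulum, had 30, 29 and 106 footprints with DMSO and 78, 24 and 11 with Rapamycin, and a TE change of -0.48 ± 0.426. The exons of SELT share 61 bases with SERP1 on the opposite strand. In none of these 4 did the cultures separate by treatment in TE.

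In RF alone, 0 of 9 members passed an adjusted p of 0.05 by edgeR's test, against 0% of the genes, 0 had an unadjusted p under 0.05 (1.76% of the genes higher and 1.92% lower), and DESeq2 called 0. The fitted RF change was above 0 for 6 members, with a median of 0.39 beside 0.02 over all genes tested. RF CPM was higher in each Rapamycin library than in any DMSO library for the same 3 members, SEPHS2, SELK and MSRB1, against 5.24% of the genes, and 0 members were lower in this way, against 4.21%.

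**Figure D5:**
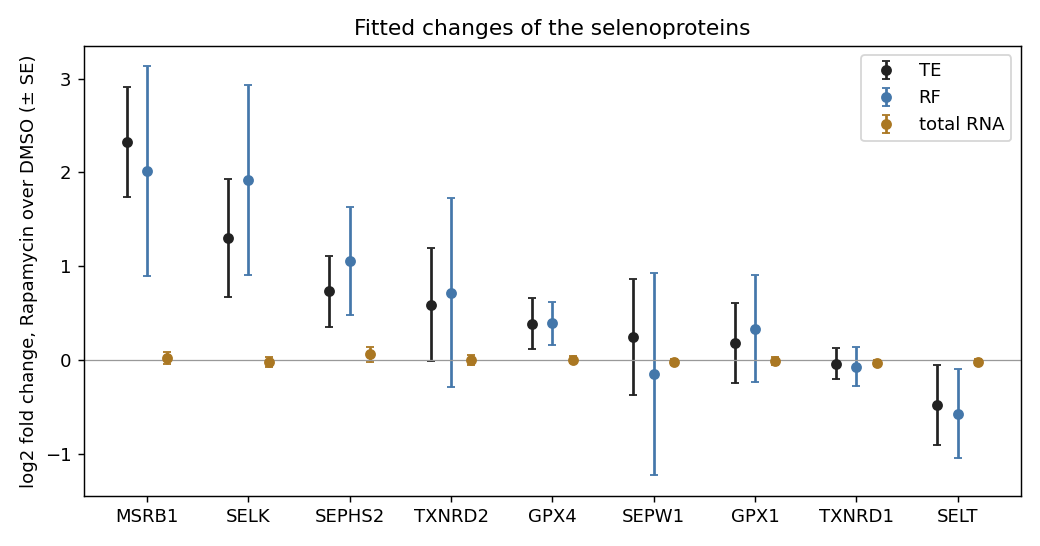
Fitted log2 fold change (Rapamycin over DMSO) of each member in TE, RF and total RNA, with SE bars. The TE change runs from -0.48 for SELT to 2.32 for MSRB1, the RF bars are wider than the TE bars except for GPX4, and the total RNA changes lie within 0.06 of 0.

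Isoforms of the members were compared in total RNA, because GPX4, TXNRD1 and TXNRD2 have isoforms that differ in the encoded N terminus. Of 77 member isoforms with a matching transcript identifier, 33 reached a mean of 1 FPKM and were tested with limma on log2(FPKM + 1), a scale that understates the change of low isoforms. Of these 33 isoforms 0 passed an adjusted p of 0.05, against 0.00258% higher and 0.00516% lower among 38790 isoforms. The main GPX4 isoform, GPX4-201 with 197 codons, had 179 ± 1.24 FPKM in DMSO and 181 ± 2.38 in Rapamycin. GPX4-203, whose 166 codons carry no annotated selenocysteine, had 40.7 ± 4.80 and 38.1 ± 6.42. GPX4-207 and GPX4-206 had 32.6 ± 12.1 and 26.1 ± 2.66 in DMSO. Most of the GPX4 RNA in both groups was thus assigned to isoforms with an annotated selenocysteine codon. At an unadjusted p under 0.05 there were 2 isoforms lower, against 2.9% of all isoforms lower and 1.84% higher, named after their values were seen, both of TXNRD1: TXNRD1-202 (88.5 ± 13.3 in DMSO, 70.9 ± 6.54 in Rapamycin) and TXNRD1-209 (51.8 ± 1.18 and 44.8 ± 1.27). Their adjusted p was 0.99 by limma.

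Other genes of the pathway were tested in the same fits. Of 16 other selenoproteins 10 could be tested, and by edgeR's test 0 passed in TE, RF or total RNA, as did 0 by DESeq2. Their median TE change was 0.47, with 8 above 0 and 2 below. C11orf31 (SELENOH, a nuclear selenoprotein) had a TE change of 0.01 and SEP15, an endoplasmic reticulum folding factor, 0.43. SELO alone of these had an unadjusted p under 0.05 in TE, with a change of 1.97, against 6.17% of all genes higher. It was named after its values were seen. In RF alone 0 had an unadjusted p under 0.05, against 1.76% of all genes higher and 1.92% lower. In total RNA 1 did, TXNRD3 (-0.15), against 2.51% of all genes lower. None of the 10 was separated by treatment in TE over the cultures, against 4.8% of all genes higher and 6.19% lower.

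Of the 13 genes for selenocysteine synthesis and insertion all were tested, and 0 passed by edgeR's test in TE, RF or total RNA. Their median TE change was 0.20. Total RNA CPM was lower in each Rapamycin library than in any DMSO library for 4 of the 13, against 6.61% of all genes. It was higher in this way for 0, against 8.22%. In RF CPM 1 was lower in this way, against 4.21%, and 0 were higher, against 5.24%. In TE 0 were separated, against 4.8% of all genes higher and 6.19% lower. RPL30, a ribosomal protein that binds SECIS elements, had a TE change of -0.38, and NCL (nucleolin) 0.15. An unadjusted p under 0.05 in TE was seen for 2 of the 13 genes, against 6.17% of all genes higher: SEPSECS (1.98), which makes selenocysteine on its tRNA, and SCLY (1.29), which releases selenium from selenocysteine. Both were named after their values were seen, as was NCL in total RNA (-0.21). NCL was the 1 gene with an unadjusted p under 0.05 there, against 2.51% of all genes lower and 3.32% higher. RF alone had 0, against 1.76% of all genes higher and 1.92% lower. DESeq2 called SEPSECS and LRP8, a receptor for selenoprotein P, as TE up (adjusted p of 0.0363 and 0.0328), where it called 5.14% of all genes.

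The 18 thioredoxin, peroxiredoxin, glutaredoxin and cysteine paralog genes had a median TE change of 0.05, with 10 above 0 and 8 below, and 0 passed by edgeR's test in TE, RF or total RNA. PRDX1 had a TE change of -0.17, PRDX5 0.22 and TXN, the thioredoxin that TXNRD1 reduces, -0.44. MSRA, a methionine sulfoxide reductase that is no selenoprotein, had an unadjusted p of 0.00955 (3.06 on the log2 scale) by edgeR's test. It had 18 RF counts in all and was named after its values were seen. It was the 1 gene of the 18 with an unadjusted p under 0.05 in TE, against 6.17% of all genes higher. RF alone had 0 genes with an unadjusted p under 0.05, against 1.76% of all genes higher and 1.92% lower. Total RNA had 1, TXN (-0.09), against 2.51% of all genes lower and 3.32% higher. In TE 0 of the 18 were separated by treatment as higher and 1 as lower, against 4.8% and 6.19% of all genes. In RF CPM 1 was higher and 1 lower in this way, against 5.24% and 4.21%. In total RNA CPM 1 was higher and 1 lower, against 8.22% and 6.61%. DESeq2 called MSRA as TE up and PRDX6 and TXN2 as TE down, where it called 685 up and 619 down among the 13329 genes.

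The genes whose RF pattern over the 6 libraries was most like that of GPX4 were RABL6, MIDN and SSU72, with root mean square differences of 0.0744, 0.0879 and 0.0882 log2 CPM after centring. The median of 6131 genes with at least 100 RF counts was 0.63. For TXNRD1 they were CCT3, ARMC8 and SMPD4 (0.0698, 0.0844 and 0.0868, median 0.511). None of these 6 genes is a selenoprotein.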

How the data were processed

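The authors filtered and trimmed RF reads, removed ribosomal RNA reads, ran HISAT2 against GRCh37 for both library types and then featureCounts, keeping unique alignments on exons of protein-coding genes. Per the labels, Cufflinks 2.2.1 (Cuffnorm) gave FPKM. The deposited counts and the deposited FPKM were used. The authors' RiboDiff columns (p-values, adjusted p-values, TE per treatment, log2 fold change) were not used. Reads shared with near-identical copies count only where unique (GPX1, SEPHS2, SELK, SELT, SEPW1 and MSRB1 have named pseudogenes), and whether counting used strand is not given in the sources used here.

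Counts were scaled by TMM within RF and within RNA and tested with edgeR 4.0.16 (quasi-likelihood, robust). The TE change was the library type by treatment interaction, fitted over 13329 genes, with Benjamini-Hochberg adjustment. RF, RNA and isoforms (limma 3.58.1) were tested likewise, and DESeq2 1.42.0 served as an alternative. Log2 TE per culture took RF and RNA libraries of the same treatment and number, with a prior count of 2. The interaction fit held no term linking such libraries and treated them as independent. On data simulated for the TE comparison with 200 of 13329 genes changed 4-fold, the test recovered 59 (29.5%) and called 72 unchanged genes. More of those calls were thus false than true. The simulated counts were drawn with a separate spread for RF and RNA and tested without applying the count minimum again. The fit of the real data called 0 genes in TE, so this share of false calls cannot be carried over to it. The same check recovered 17.5% in RF, with 1 unchanged gene called, and 87% in total RNA, with 6. Transcripts and sequences were read from GENCODE on GRCh37, which is not the authors' annotation release. All 9 members are named. Of the other lists, the 2 genes with the highest FPKM, the 2 with the most RF counts and any call are named. The members and lists were chosen with earlier results of these data known.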

Additional observations from a re-analysis of the deposited data

How the results depend on the processing

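By edgeR's quasi-likelihood test the count of members with changed TE was 0, and it was 1 with DESeq2 (MSRB1, adjusted p of 0.00458) and 1 without DMSO 3 (SELK, adjusted p of 0.0236), so that leaving out 1 culture gave 0 to 1. Over the genes tested DESeq2 called 685 TE up and 619 TE down and the fit without DMSO 3 called 65 and 331, against 0 and 0, and the cause was not tested. In RF, total RNA and isoforms the members' count stayed at 0 under each alternative run. Over all genes, total RNA gave 683 higher and 4 lower without DMSO 3 and 25 and 4 with DESeq2, and RF gave 4 and 1 with DESeq2 and 10 and 10 without a filter, against 0 and 0 in each. Members with changed total RNA were also tested on FPKM. Leaving out 1 culture moved the TE change of MSRB1 between 1.88 and 2.95, SEPHS2 between 0.464 and 1.61, GPX4 between 0.165 and 0.528, SELT between -0.989 and -0.251, and SELK between 0.775 and 13.2. That last value rests on 0 SELK counts in both remaining DMSO libraries and is no bound. The sign turned in leave-one-out for TE of GPX1 (-0.0521 to 0.362), TXNRD1 (-0.136 to 0.047), TXNRD2 (-0.324 to 1.85) and SEPW1 (-0.537 to 0.903), and for RF of GPX1 (-0.00316 to 0.512), TXNRD1 (-0.178 to 0.025) and SEPW1 (-0.953 to 0.369). In total RNA, where changes were near 0, it turned for GPX1 (-0.0306 to 0.0133), GPX4 (-0.0236 to 0.0241), TXNRD2 (-0.0366 to 0.0238), SEPHS2 (-0.0384 to 0.117), SELK (-0.0364 to 0.00751), SELT (-0.039 to 0.00528) and MSRB1 (-0.00401 to 0.0391). With limma voom TXNRD1 TE was 0.0285, and with DESeq2 SEPW1 TE was -0.0514. Total RNA of GPX1 was 0.00542 with a minimum of 100 counts, and that of GPX4 was -0.000495 with DESeq2 size factors and -0.0149 without a filter. On FPKM with a pseudocount of 1, a pseudocount of 0.1 and no minimum, total RNA was -0.0067, -0.00672 and -0.0067 for GPX4, -0.0133, -0.015 and -0.0133 for SEPHS2, 0.0311, 0.0332 and 0.0311 for SELK, and 0.00138, 0.0014 and 0.00138 for SEPW1. Of these no value passed its test, and the remaining alternatives kept the direction.

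Same-numbered cultures did not deviate together (r of -0.118, -0.061 and -0.074 in RF, and -0.107, -0.119 and -0.216 in total RNA). With so few cultures per group the deviations depend on each other. These values thus cannot tell whether same-numbered cultures were grown or handled together. The replicate block tied same-numbered cultures within a library type and did not link RF to RNA. With it 0 members were called in TE, RF, total RNA or isoforms, SEPW1 TE was -0.0505, SELK TE was 2.08 and SEPHS2 TE was 1.09. Among all genes the block called 1 TE up.

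Depth limits the members unequally. MSRB1, TXNRD2, SEPW1 and SELK had 39 to 91 RF counts in all, and with a minimum of 100 counts 5 members were left to test. The scalings of TE to coding length and the comparison with genes of at least 1 CPM were chosen after seeing the data.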
